A study of Mus musculus and Homo sapiens with 34 samples.

Results

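Trametinib, an allosteric inhibitor of the MEK kinases, was applied at 50 nM for 48 h to 3311, a mouse lung cell line, and poly(A) RNA was sequenced from 2 treated and 2 vehicle libraries. These are 4 of the 34 libraries of the series, taken as the trametinib and DMSO columns of the count table for 3311, with every gene in it. All 4 libraries share a genotype: p53frt, a Rosa-FSF-CreERT2 allele that encodes inducible Cre, the conditional alleles Foxa1flox and Foxa2flox, and a further allele not reported here. The labels give no step deleting either Foxa gene in these cells, and both genes were counted in every library. The cells grew in DMEM with 10% serum. The experiment rests on a single line, and nothing says that the 2 libraries of a group came from separate cultures, so p-values measure only the spread between these libraries. A second trametinib experiment in the series, used below for comparison, treated 1027B organoids of the same genotype at 10 nM for 48 h in L-WRN conditioned medium.

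Growth factor receptors signal through RAS and RAF proteins to the MEK kinases, which phosphorylate and activate ERK. ERK in turn induces immediate early and ETS transcription factors, and also its own brakes, among them the DUSP phosphatases and the Sprouty and Spred proteins, so transcripts of these brakes are a common readout of pathway output. In lung adenocarcinoma the pathway drives proliferation and is tied to cell identity. In the alveolus, cell identity is split between surfactant-secreting type 2 cells and flat gas-exchanging type 1 cells. HNF4A is a regulator of gut and liver epithelium that mouse lung tumours can also express.

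Total counts ran from 25529956 to 28634922 per library. Correlations of log2 CPM (counts scaled to library size) were 0.99 between the replicates of each group and 0.93 to 0.95 across groups, and the first principal component, with 86.9% of the variance, separated the treatments. The epithelial genes Cdh1 and Krt8 were abundant in all libraries, at 600 to 940 CPM and 1870 to 2923 CPM. Of 8 epithelial genes in the marker list, 1 rose, 1 fell and 6 were not called, beside 19.4% and 19.6% of all genes. Of these 8, 1 was under 1 CPM in every library. The leukocyte gene Ptprc and the fibroblast gene Col1a2 had no count. Summed over each marker list, fibroblast and smooth muscle genes gave 21.7 and 26.5 CPM with vehicle and 19.0 and 18.5 CPM with trametinib, and endothelial genes gave 3.31 and 4.18 against 2.83 and 2.36 CPM. Of 4 fibroblast and smooth muscle genes tested, Col1a1 (2.08 and 1.35 to 6.7 and 3.92 CPM) and Acta2 (0.223 and 0.279 to 1.51 and 1.18 CPM) rose and Pdgfra fell (13.7 and 13.5 to 7.71 and 7.46 CPM). The leukocyte list summed to 58.5 and 81.0 CPM with vehicle and 34.7 and 45.6 CPM with trametinib, nearly all of it from Cd14 and Csf1r, with 7 of its 10 genes at 0 or not listed. Of lung markers, Nkx2-1 and Sftpb were well expressed, but the type 2 markers Sftpc, Sftpa1, Napsa and Lyz2 had at most 18 counts in any library. Mitochondrial transcripts took 1.44% and 1.45% of counts with vehicle and 3.12% and 3.35% with trametinib, and the part of this shift in the results below was not tested.

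Trametinib changed a large part of the transcriptome in both directions. Of 15224 genes tested with edgeR's quasi-likelihood test, 5938 (39.0%) were called at an adjusted p under 0.05, 2956 (19.4%) higher and 2982 (19.6%) lower. The median log2 fold change over all genes tested was 0.01, and changes of at least 2-fold were called for 1719 genes up and 1667 down. At least 16-fold changes numbered 135 up and 99 down. The called genes included 564 that rose from a vehicle mean under 1 CPM and 433 that fell to a trametinib mean under 1 CPM. The count was lower without the first vehicle library or either trametinib library, most so without the first trametinib library. It was higher without the second vehicle library.

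**Figure D1:**
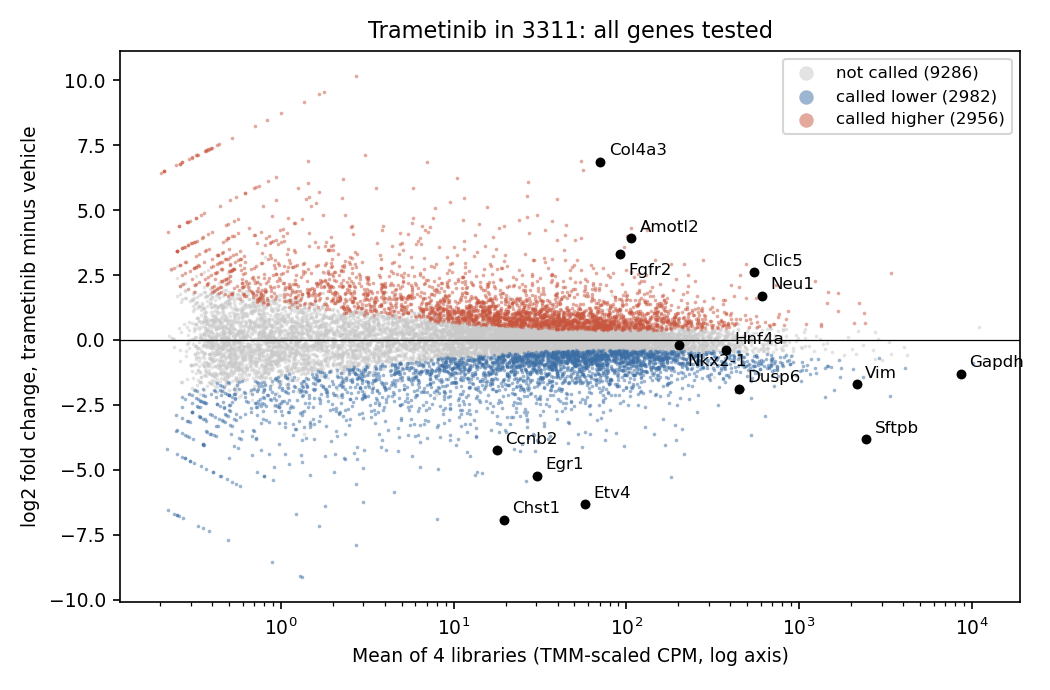
Each point is a gene tested, with the mean of the 4 libraries in TMM-scaled CPM on a log axis and the log2 fold change with trametinib on the vertical axis. Called genes lie on both sides of 0 in near equal number (2956 higher, 2982 lower), and the 2 genes Hnf4a and Nkx2-1 sit near 0.

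Among the 8 genes chosen for the largest falls, of those called at 10 CPM or more in the higher group and with no overlap between the groups, Chst1, a keratan sulfate sulfotransferase, was at 47.6 and 29.7 CPM in the vehicle libraries and at 0.287 and 0.342 CPM with trametinib, a log2 change of -6.92. Lilr4b, a leukocyte immunoglobulin-like receptor, followed at -6.89 from 10.8 and 21.1 CPM, and the ETS factor Etv4 at -6.31. Ccdc88b (-5.41), the BMP antagonist Grem1 (-5.19), Oit1 (-5.12) and Egr1 (-5.22) were also among the 8 largest falls.

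Among the 8 genes with the largest rises, chosen in the same way, Gm17322, annotated as a long intergenic noncoding RNA on chromosome 9 (GRCm38, 57998041 to 58007451, plus strand), was at 0.446 and 1.39 CPM with vehicle and at 122 and 94.7 CPM with trametinib. The collagen genes Col4a3 and Col4a4 rose by log2 changes of 6.87 and 6.54. The interferon-inducible gene Ifi205 rose from 0.186 and 0.358 to 24.7 and 16.7 CPM. Cyp11a1, the cholesterol side-chain cleavage enzyme of steroid synthesis, rose from 0.26 and 1.31 to 64.3 and 41.7 CPM. Cyp11a1 (chromosome 9, 58006411 to 58027023, plus strand) overlaps Gm17322 on the same strand, with 3.02% of its exon bases and 6.69% of those of Gm17322 shared, so the 2 rises are not shown to be separate. The noncoding gene Gm21814 (5.85) and the sorting nexin gene Snx22 (5.55) also rose among the 8 largest, and 28.5% of Snx22's exon bases lie opposite exons of another gene, so reads of the 2 cannot be separated if strand was not used in counting.

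Most ERK feedback and ETS target genes fell. Of 19 tested members of a list of 20 ERK feedback inhibitors and ETS targets, 15 fell, 1 rose and 3 were not called, against 19.6% of all genes tested that fell, and the list's median log2 change was -1.20 against 0.01 over all genes. Etv4, on chromosome 11 (GRCm38, 101769742 to 101785371, minus strand), was at 112 and 115 CPM with vehicle and at 1.11 and 1.75 CPM with trametinib (edgeR, log2 change -6.31, SE 0.23, adjusted p = 0.00022). Both treated libraries held under 2 CPM of this ETS factor, and its relatives Etv5 (177 and 161 to 37.6 and 57.3 CPM) and Etv1 (8.73 and 4.54 to 1.72 and 1.94 CPM) fell less.

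Among the brakes on the pathway, Spry4 went from 125 and 157 CPM to 6.17 and 13.6 CPM (-3.84). Dusp4, a nuclear ERK phosphatase, went from 301 and 276 CPM to 33.3 and 37.5 CPM (-3.03), and the cytoplasmic ERK phosphatase Dusp6 from 644 and 768 CPM to 157 and 229 CPM (-1.87). Spry1, Spry2, Spred1, Spred2 and Spred3 fell by smaller amounts, with log2 changes from -0.92 to -1.20. The exceptions were the ephrin receptor gene Epha4, which rose from 59.1 and 71.4 to 120 and 117 CPM, and Epha2 and Spry3, which were not called. Ccnd1, the cyclin D1 gene and a textbook ERK target, was at 109 and 126 CPM with vehicle and 62.9 and 92.2 CPM with trametinib, which missed the threshold (edgeR adjusted p = 0.0504).

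The promoter of Dusp5, which encodes a nuclear ERK phosphatase, holds motifs of the serum response factor that works with ETS partners downstream of ERK, and is printed for that reason. The 250 bases before its RefSeq start (GRCm38.p6, chr19:53528895-53529144, plus strand) are given 5′ to 3′, with a pair of adjoining CArG boxes, 82 to 73 and 72 to 63 bases before the start, in capitals.
Dusp5: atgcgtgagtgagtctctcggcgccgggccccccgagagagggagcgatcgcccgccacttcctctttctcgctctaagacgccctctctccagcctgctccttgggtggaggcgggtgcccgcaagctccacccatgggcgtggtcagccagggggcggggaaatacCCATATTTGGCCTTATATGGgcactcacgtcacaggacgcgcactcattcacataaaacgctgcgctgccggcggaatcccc
Dusp5 was at 46.1 and 77.2 CPM with vehicle and at 15.4 and 16.1 CPM with trametinib (-1.97). A CArG box was found on either strand in 1.14% of the same windows of 10798 tested genes with a RefSeq promoter, in 1.5% of the 400 that fell at least 4-fold and in 1.85% of the 433 that rose at least 4-fold.

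Immediate early factors, the first wave of genes that ERK switches on, fell for 10 of 18 members, with 1 higher and 7 not called, against 19.6% of all genes tested that fell and 19.4% that rose. The EGR family fell furthest. Egr1 was at 39.1 and 79.7 CPM with vehicle and 0.609 and 2.59 CPM with trametinib, Egr3 at 15.7 and 23.3 against 1.08 and 1.29 CPM (-4.03), and Egr2 at 2.64 and 3.19 against 0.215 and 0.19 CPM (-3.81). Within the AP-1 family the members diverged. Fosl1 fell from 42.6 and 92.0 to 3.48 and 7.00 CPM (-3.69) and Fos from 8.18 and 19.7 to 3.12 and 3.96 CPM (-1.98), while Fosl2 rose from 107 and 160 to 245 and 240 CPM (0.86). Jun, Jund, Myc and Srf were not called.

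**Figure D2:**
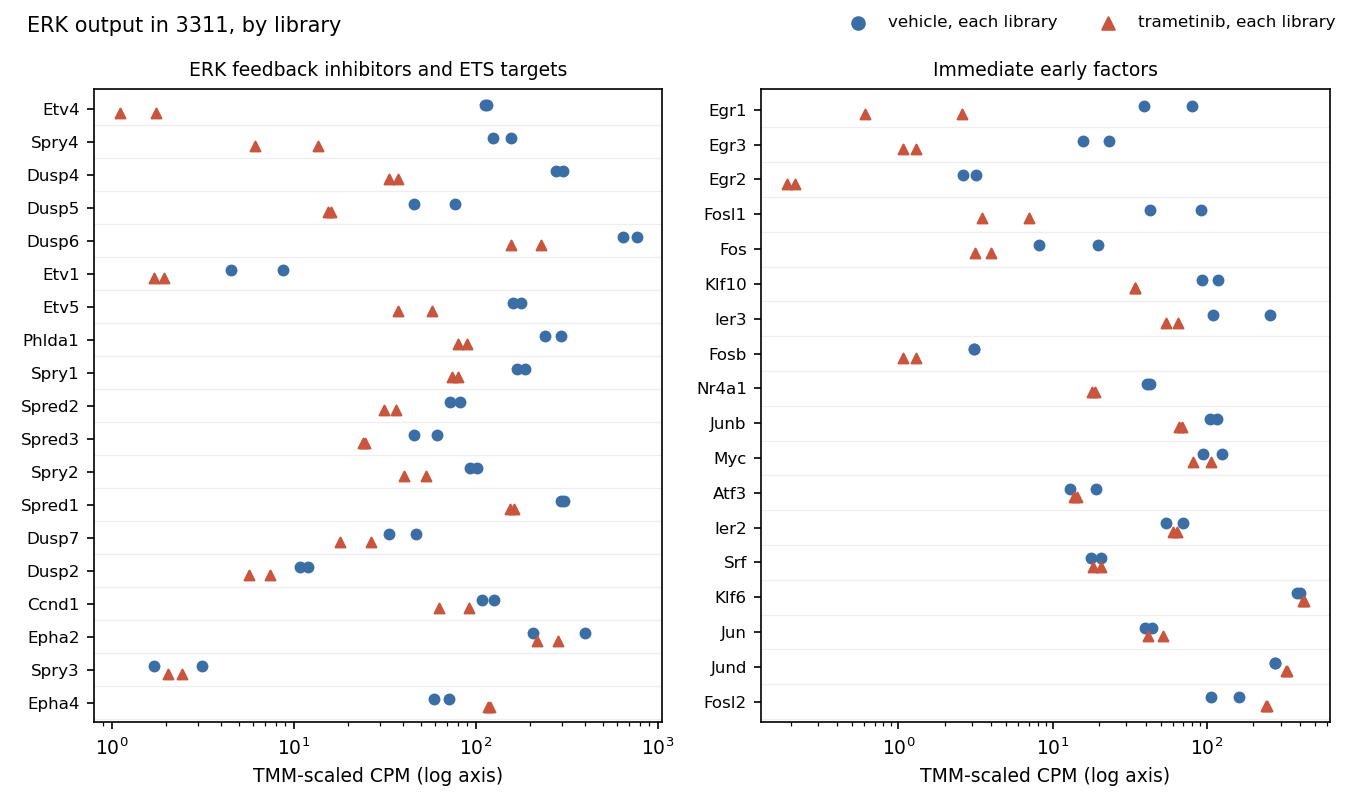
Each symbol is a library's level in TMM-scaled CPM on a log axis, circles for vehicle and triangles for trametinib, with genes in the order of their fold change. Triangles lie to the left of circles for the upper genes of both lists, from Etv4 (112 and 115 against 1.11 and 1.75 CPM) and Egr1 downwards, and to the right for Epha4 and Fosl2.

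Transcripts of the pathway's own proteins changed by less than 2-fold. Of 20 genes from RAS to RSK, 3 rose, 5 fell and 12 were not called, so that 8 of 20 were called beside 39.0% of all genes. The list's log2 changes ran from -0.84 to 0.93 with a median of -0.12, which was -0.24 to -0.03 with a library left out. Hras rose from 35.9 and 33.7 to 66.8 and 65.9 CPM. Of the drug's target genes, Map2k1 (MEK1) fell from 193 and 196 to 104 and 127 CPM, and Map2k2 (MEK2) was not called at 106 and 110 against 103 and 107 CPM. The difference between the 2 genes was not tested. The kinase gene Rps6ka3 (-0.84) and the exchange factor gene Sos2 (-0.83) also fell.

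Among receptor tyrosine kinases upstream of RAS, Fgfr2 was at 12.6 and 21.2 CPM in the vehicle libraries and at 168 and 163 CPM in the trametinib libraries (edgeR, log2 change 3.30, SE 0.25, adjusted p = 0.000431). Its relative Fgfr4 fell from 45.4 and 55.2 to 21.6 and 24.7 CPM (-1.12). In the ERBB family, Erbb2 rose from 49.8 and 78.3 to 144 and 147 CPM (1.18), and Egfr fell from 24.2 and 23.9 to 9.25 and 13.1 CPM (-1.11), as did Erbb3 (-0.72). Of 17 receptors and adaptors tested, 3 rose, 6 fell and 8 were not called, beside 19.4% of all genes that rose and 19.6% that fell. Without the first trametinib library 3 were called lower.

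Of 7 genes for ligands of EGFR, 4 fell, 1 rose, 1 was not called and Epgn was too low to test. Areg, which encodes amphiregulin, was at 231 and 306 CPM with vehicle and at 15.5 and 27.7 CPM with trametinib (-3.64). Ereg (-2.16), Btc (-1.55) and Tgfa (-0.88) fell as well, while Hbegf was not called and Egf rose from 7.36 and 6.57 to 52.1 and 22.4 CPM (2.42). Over 15 growth factor genes tested, 7 fell, 3 rose and 5 were not called, beside 19.6% and 19.4% of all genes that fell and rose. The number lower was 4 without the second vehicle library and 4 without the first trametinib library, and Fgf9, under 1 CPM in every library, lost its call whichever library was left out.

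Genes of mitosis fell without exception, all 25 of 25 tested, with log2 changes from -4.33 to -1.28 and a median of -3.05, while 19.6% of all genes tested fell. Mki67, the proliferation marker, was at 231 and 132 CPM with vehicle and at 7.82 and 13.6 CPM with trametinib (edgeR, log2 change -4.09, adjusted p = 0.000633). Bub1, a spindle checkpoint kinase, went from 40.7 and 30.1 to 0.825 and 2.7 CPM (-4.33), Ccna2, cyclin A2, from 61.9 and 30.3 to 1.97 and 2.82 CPM (-4.27), and Ccnb2, cyclin B2, from 43.7 and 24.1 to 1.36 and 2.21 CPM (-4.25). The first vehicle library was the higher of the pair for 24 of these 25 genes. Foxm1, the transcription factor of the G2 programme, fell least, from 29.0 and 20.5 to 10.6 and 9.85 CPM.

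DNA replication genes fell less steeply, 19 of 29 with none higher and a median of -0.97, beside 19.6% of all genes that fell. With upper-quartile factors, and in the joint fit, 1 was called higher. The licensing genes Cdc6 (9.07 and 8.76 to 1.61 and 2.13 CPM, -2.25) and Cdt1 (75.9 and 58.1 to 17.1 and 18.6 CPM, -1.91) and the polymerase subunit gene Pola1 (-1.82) fell furthest. Pcna, Mcm2 and Mcm4 were not called. Of 21 G1 cyclins and CDK inhibitors, 6 fell, 1 rose and 14 were not called, so that 7 of 21 were called beside 39.0% of all genes. Without the second vehicle library 2 were called higher. The median, -0.60 with all libraries, ran from -0.54 to -0.32 with a library left out, the last without the first vehicle library. Of the D cyclins, Ccnd2 fell from 1072 and 978 to 392 and 545 CPM (-1.13), and Ccnd3 rose from 53.3 and 76.9 to 176 and 163 CPM (1.38). The CDK inhibitor gene Cdkn1b (p27) fell from 571 and 420 to 243 and 226 CPM (-1.08), and Cdkn1a, at 118 and 288 against 98.7 and 163 CPM, was not called.

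In the BCL2 family, 7 of 15 genes rose, 2 fell and 6 were not called, beside 19.4% and 19.6% of all genes that rose and fell. The BH3-only genes, which promote apoptosis, included Bcl2l11 (BIM; 20.9 and 21.4 to 38.5 and 34.4 CPM, 0.79) and Bmf (73.3 and 81.5 to 169 and 142 CPM, 1.01), both higher, and Pmaip1, which fell (-0.59). Bik rose from 0.0372 and 0.159 to 3.41 and 1.22 CPM, and Bid from 7.28 and 11.7 to 21.8 and 26 CPM (1.33), with 17.7% of its exon bases opposite exons of another gene. The anti-apoptotic genes Mcl1 (148 and 137 to 238 and 227 CPM, 0.71) and Bcl2 (0.80) rose too. Bok, a BAX-like effector gene, fell from 69.9 and 73.9 to 13.3 and 21.2 CPM (-2.06). When either trametinib library was left out, 1 gene was called lower.

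**Figure D3:**
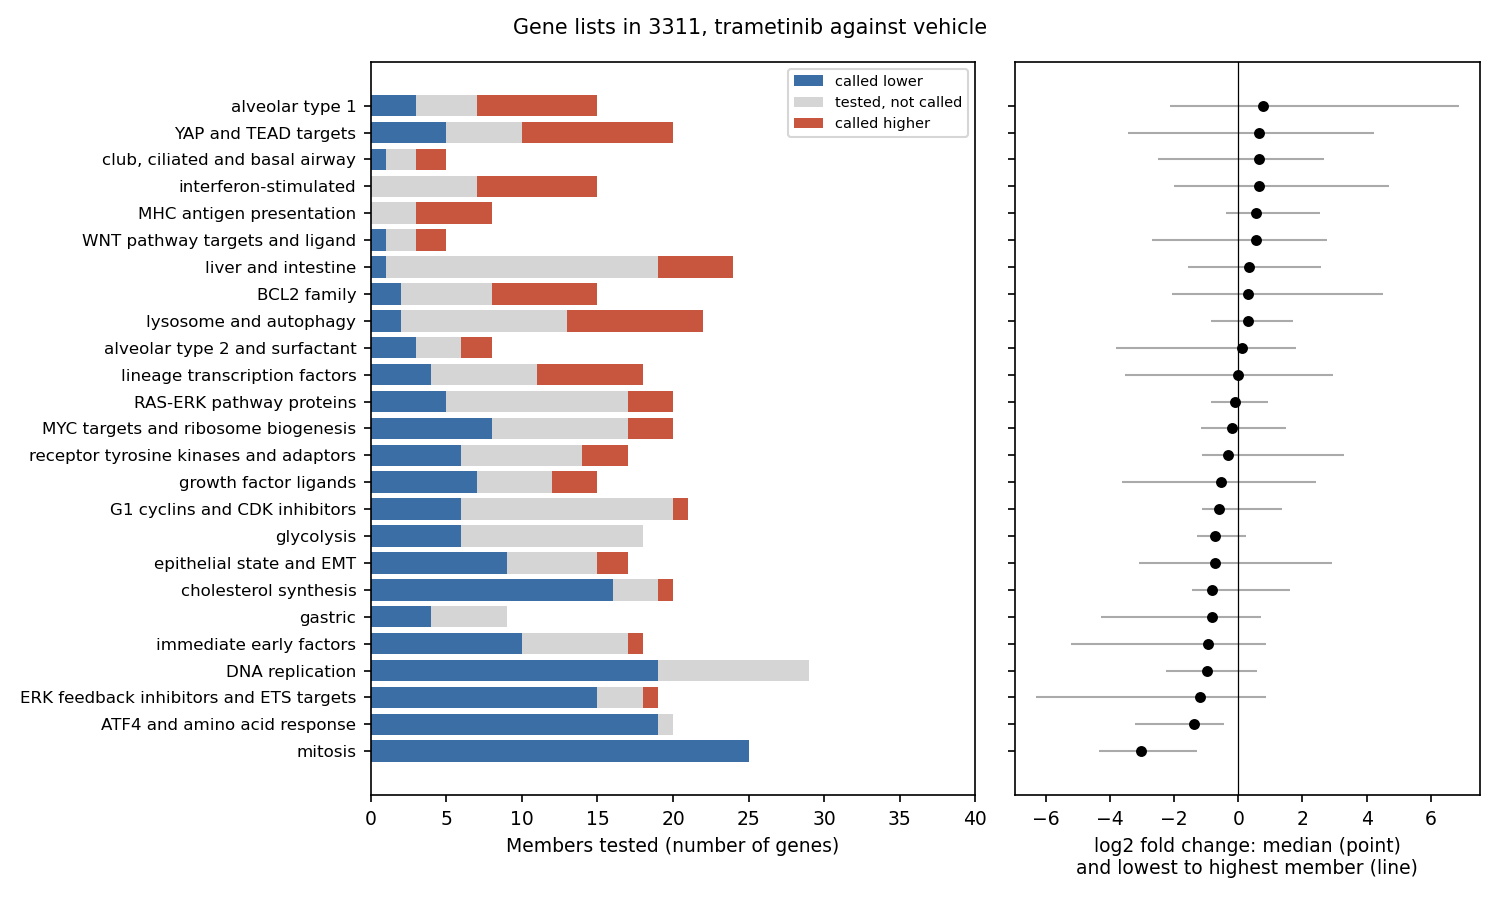
The left panel gives, for each gene list, how many of its tested members were called lower, not called or called higher with trametinib, and the right panel the median log2 fold change with the lowest and highest member. Mitosis (25 of 25 lower) and the ATF4 list (19 of 20 lower) lie at the bottom, and the alveolar type 1 and YAP lists have the highest medians (0.76 and 0.65).

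Neither Hnf4a, which other experiments of the series delete or overexpress, nor Nkx2-1 differed beyond the spread between libraries. Hnf4a, a nuclear receptor of liver and gut epithelium, was at 374 and 479 CPM with vehicle and at 263 and 390 CPM with trametinib, with overlapping groups (edgeR, log2 change -0.39, adjusted p = 0.208). Without the second trametinib library it was called lower (-0.70, adjusted p = 0.0299). Nkx2-1 was at 248 and 183 CPM against 202 and 176 CPM, again overlapping (-0.19, adjusted p = 0.443).

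Of 18 lineage factors tested, 7 rose and 4 fell, beside 19.4% and 19.6% of all genes. Sox9, a progenitor and distal lung factor, fell most, from 91.2 and 122 CPM to 9.14 and 9.09 CPM (edgeR, log2 change -3.55, SE 0.19, adjusted p = 0.000262). Higher were Gata6 (71.4 and 75.9 to 163 and 160 CPM, 1.13), Foxa1 (28.0 and 32.2 to 61.8 and 50.1 CPM, 0.89), the intestinal factor Cdx2 (112 and 132 to 190 and 212 CPM, 0.72), Klf4 (1.33) and Gata4 (0.78). Hnf4g, the close relative of Hnf4a, rose from 0.855 and 1.91 to 6.63 and 9.28 CPM (2.53), and the epithelial ETS factor Ehf from 0.446 and 0.438 to 3.62 and 3.27 CPM (2.95). Foxa3 (-1.10) and Elf3 (-0.98) fell. Foxa2, at 63.9 and 65.3 against 70.0 and 58.9 CPM, was not called.

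The surfactant gene Sftpb, a product of alveolar type 2 and club cells, was at 4215 and 4932 CPM with vehicle and at 259 and 387 CPM with trametinib (edgeR, log2 change -3.82, SE 0.27, adjusted p = 0.000392). Of 8 type 2 genes tested of 18 listed, 3 fell, 2 rose and 3 were not called, beside 19.6% and 19.4% of all genes that fell and rose. Without the first vehicle library 1 was called higher. Abca3, the lamellar body lipid transporter, was not called (250 and 272 against 338 and 308 CPM). Lpcat1, an enzyme of surfactant lipid synthesis, rose from 19.3 and 16.1 to 92.5 and 31.5 CPM, a call lost when either vehicle library was left out.

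Alveolar type 1 genes rose for 8 of 15 tested, with 3 lower and a median of 0.76, beside 19.4% and 19.6% of all genes that rose and fell. Ager, the receptor RAGE and a type 1 marker in lung, was at 16.5 and 12.9 CPM with vehicle and at 246 and 110 CPM with trametinib (edgeR, log2 change 3.60, SE 0.38, adjusted p = 0.00104). Clic5 rose from 146 and 162 to 1042 and 833 CPM (2.61), and Hopx from 0.483 and 0.478 to 5.41 and 1.52 CPM (2.84). Other type 1 genes did not follow: Aqp5 was not called at 4.42 and 3.58 against 4.80 and 3.35 CPM, Rtkn2 fell from 34.9 and 32.1 to 8.89 and 6.51 CPM, and Pdpn and Cldn18 were too low to test. The number higher was 5 without the second vehicle library and 5 without the first trametinib library, and the number lower was 1 without the second vehicle library and 1 without the second trametinib library. The median ran from 0.5 to 1.61 with a library left out, lowest without the first trametinib library and highest without the first vehicle library.

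Col4a3 and Col4a4, chains of the basement membrane collagen that type 1 cells share with the kidney glomerulus, had the steepest rise of the list. Col4a3 was at 1.15 and 1.23 CPM with vehicle and at 223 and 57.7 CPM with trametinib, and Col4a4 at 0.818 and 1.55 against 171 and 50.1 CPM. In both genes the first trametinib library was the higher. The genes lie head to head on chromosome 1 (GRCm38, Col4a3 from 82586921 on the plus strand, Col4a4 to 82586849 on the minus strand), and the 71 bases between their starts, read here on the minus strand from chr1:82586850-82586920, are printed because they are all the upstream sequence that the pair shares before the other gene begins.
Col4a3 and Col4a4: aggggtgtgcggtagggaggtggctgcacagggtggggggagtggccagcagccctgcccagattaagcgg

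Of 9 gastric genes tested, 4 fell, 0 rose and 5 were not called, so that 4 of 9 were called beside 39.0% of all genes. With the replicate number as a block 1 was called higher. Agr2, a secretory pathway disulfide isomerase of mucous cells, fell from 56.1 and 56.6 to 1.97 and 3.84 CPM (-4.28), Onecut2 from 492 and 404 to 55.7 and 76.0 CPM (-2.77), and the gastric adhesion gene Vsig1 from 43.3 and 39.3 to 17.6 and 22.8 CPM (-1.03). Gkn2 fell from 30.7 and 42.2 to 9.75 and 21.8 CPM, a call lost when either vehicle library was left out or without the first trametinib library.

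Liver and intestine genes, a group that HNF4A is known to regulate, rose for 5 of 24, fell for 1 and were not called for 18, beside 19.4% of all genes that rose and 39.0% that were called. The largest changes called were in Cps1, of the urea cycle (0.186 and 1.47 to 3.08 and 6.58 CPM, 2.55), Fabp2, the intestinal fatty acid binding protein (0.483 and 0.916 to 1.94 and 2.74 CPM, 1.74), and Afp, alpha-fetoprotein and the member that fell (322 and 588 to 76.3 and 233 CPM, -1.56). Cps1 lost its call without the first vehicle library, Fabp2 without that library or the second trametinib library, and Afp when either vehicle library was left out, with DESeq2 and with upper-quartile factors. Cdhr5 (196 and 275 to 379 and 609 CPM, 1.07) and Myo7b (205 and 258 to 365 and 409 CPM, 0.74), proteins of the brush border, rose, as did Krt20 (1.18). Alb, the albumin gene, was at 859 and 1040 CPM with vehicle and at 302 and 704 CPM with trametinib and was not called. The second library was above the first in both groups for 22 of the 24 genes. Examples were Vil1 (103 and 243, then 124 and 280 CPM), Apoa1 (17.0 and 43.1, then 3.55 and 25.0 CPM) and Muc13 (25.6 and 68.2, then 64.2 and 152 CPM). With the replicate number as a block, 9 genes of the list were called higher and 6 lower, against 5 and 1 without it. The number higher was 0 without the first vehicle library and 10 without the first trametinib library, the number lower 8 without the second trametinib library and 0 when either vehicle library was left out, and the list's median turned to -0.46 without the second trametinib library.

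**Figure D4:**
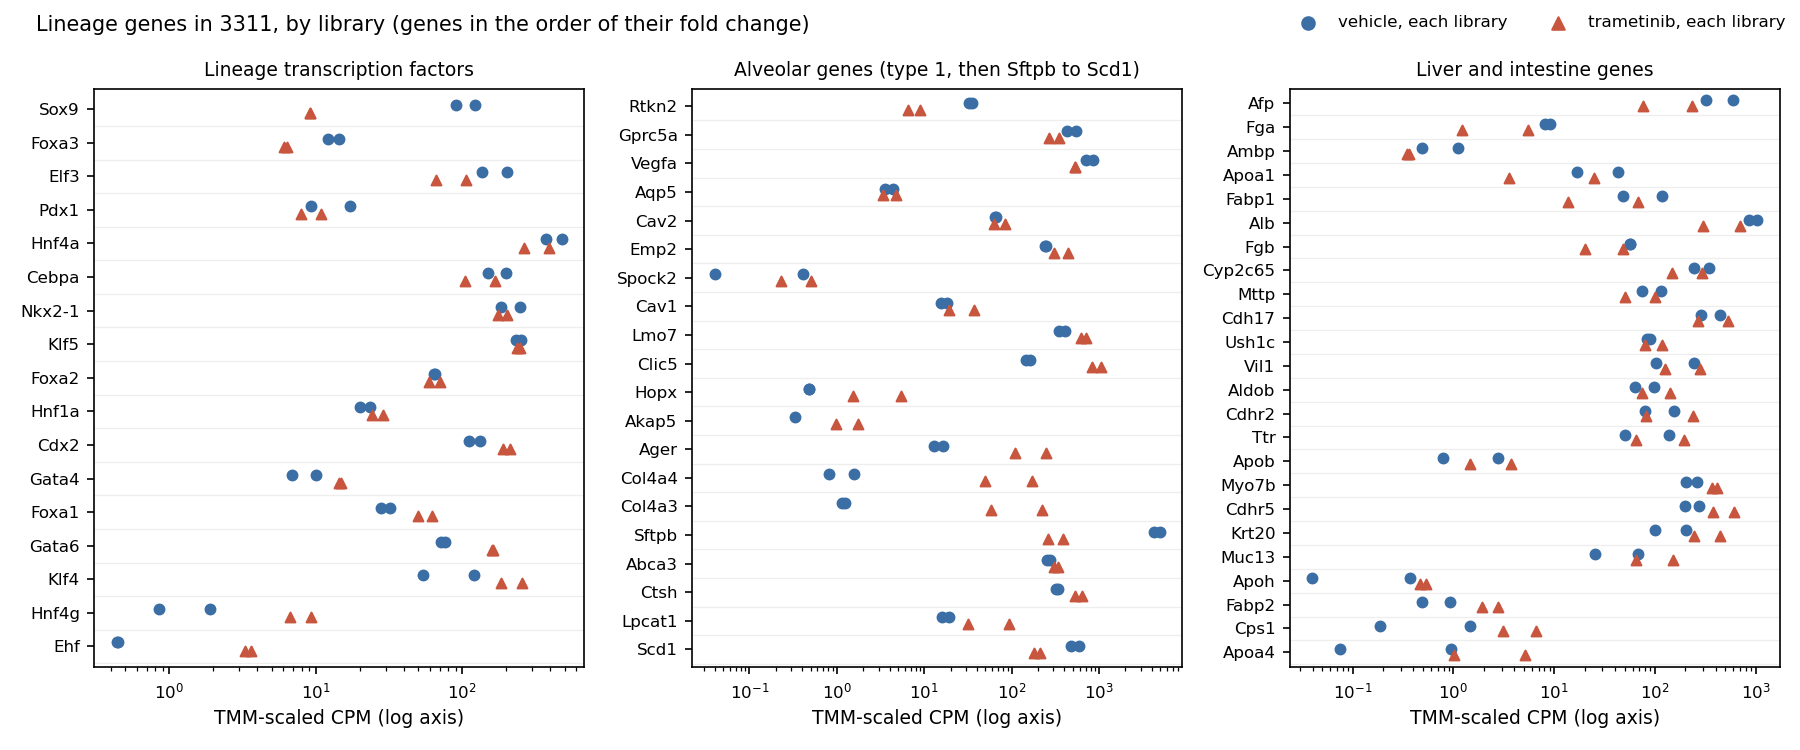
Each symbol is a library's level in TMM-scaled CPM on a log axis, circles for vehicle and triangles for trametinib; the first panel shows 17 of the 18 factors tested. Hnf4a and Nkx2-1 overlap between groups, Sox9 and Sftpb (4215 and 4932 against 259 and 387 CPM) are lower with trametinib, Col4a3, Col4a4, Ager and Clic5 are higher, and most liver and intestine genes overlap.

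Several mesenchymal genes fell, and Cdh1 and Epcam were not called. Vim, the vimentin gene, was at 3813 and 2771 CPM with vehicle and at 885 and 1154 CPM with trametinib (-1.69), and Fn1, fibronectin, at 2498 and 2531 against 509 and 827 CPM (-1.91). The transcription factor genes Snai1 (-2.16), Twist1 (-1.91) and Zeb1 (-0.74) and the chromatin protein gene Hmga2 (-1.42) fell, while Zeb2 rose (0.95). The epithelial factor gene Ovol1 fell as well, from 1.15 and 3.43 to 0.0358 and 0.495 CPM (-3.11), a call lost without the second vehicle library (-2.12, edgeR adjusted p = 0.16), with 22% of its exon bases opposite exons of another gene. Cdh1, E-cadherin, at 600 and 791 against 882 and 940 CPM, was not called, nor was Epcam. Among TGF-beta ligands Tgfb1 fell from 84.2 and 71.6 to 32.3 and 19.9 CPM (-1.58) and Tgfb2 rose from 1.37 and 2.35 to 18.2 and 9.74 CPM (2.91). In all, 9 of 17 genes of this list fell, 2 rose and 6 were not called, beside 19.6% and 19.4% of all genes that fell and rose, and 4 were higher without the second vehicle library and 1 without the first trametinib library. Snai1 lost its call without the first vehicle library.

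Targets of YAP and TEAD, the effectors of Hippo signalling, rose for 10 of 20, with 5 lower and 5 not called, beside 19.4% of all genes that rose and 19.6% that fell. The angiomotin gene Amotl2, itself a YAP inhibitor, was at 10.1 and 16.1 CPM with vehicle and at 222 and 178 CPM with trametinib (edgeR, log2 change 3.93, SE 0.25, adjusted p = 0.000349). Ajuba, a LIM scaffold that restrains LATS kinases, rose from 21.7 and 25.3 to 143 and 122 CPM (2.49), and Lats2 from 8.06 and 8.84 to 27.6 and 23.8 CPM (1.6). Ccn2 (CTGF) rose from 0.409 and 0.956 to 12.5 and 13.4 CPM (4.25), with 23.2% of its exon bases opposite exons of another gene, and the related Ccn1 was not called (54.9 and 61.3 against 54.3 and 62.5 CPM). Those that fell were F3, tissue factor (241 and 531 to 31.9 and 39.2 CPM, -3.44), Gadd45a (-2.44), Nt5e (-1.85), Dock5 (-0.96) and Axl (-0.51).

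Promoters of 3 of these genes, chosen after the search, are printed to show where motif letters of TEAD and of AP-1, the dimer that FOS family proteins form, lie in genes with large changes. Amotl2 (GRCm38.p6, chr9:102717554-102717803, plus strand) and Ajuba (chr14:54577662-54577911, minus strand), which rose, each hold a TEAD motif ACATTCC, in capitals, 66 to 60 and 187 to 181 bases before the RefSeq start. F3 (chr3:121723287-121723536, plus strand), which fell, holds the AP-1 motif TGANTCA at 2 places, in capitals, 146 to 140 and 135 to 129 bases before the start.
Amotl2: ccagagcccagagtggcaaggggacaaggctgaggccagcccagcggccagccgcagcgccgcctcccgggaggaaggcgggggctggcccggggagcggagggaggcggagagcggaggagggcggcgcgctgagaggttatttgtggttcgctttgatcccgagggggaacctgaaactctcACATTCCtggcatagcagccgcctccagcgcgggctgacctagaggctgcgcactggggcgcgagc
Ajuba: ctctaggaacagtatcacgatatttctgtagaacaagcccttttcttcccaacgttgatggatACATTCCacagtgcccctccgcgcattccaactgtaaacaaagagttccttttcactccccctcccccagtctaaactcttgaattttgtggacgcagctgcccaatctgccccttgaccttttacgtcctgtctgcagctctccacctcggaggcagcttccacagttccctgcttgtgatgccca
F3: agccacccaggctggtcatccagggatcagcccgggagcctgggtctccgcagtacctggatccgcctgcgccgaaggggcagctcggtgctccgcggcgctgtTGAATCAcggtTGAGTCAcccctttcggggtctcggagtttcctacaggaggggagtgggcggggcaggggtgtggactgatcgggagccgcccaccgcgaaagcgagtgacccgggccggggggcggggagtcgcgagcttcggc
Searched on both strands, ACATTCC was in 2.41% of the 10798 promoter windows, in 3.93% of the 433 that rose at least 4-fold and in 2.5% of the 400 that fell at least 4-fold. TGANTCA was in 4.45% of all windows, in 9.25% of those that fell at least 4-fold and in 6.93% of those that rose at least 4-fold. The ETS motif CCGGAAGT was in 6.05% of all windows and in 3.5% and 4.39% of the windows that fell and rose at least 4-fold. The motifs TTTGAA (CHR), TGTTTAC (FOX), TCACGTGA (CLEAR core) and TGACGTCA (CRE) were searched too. They were in 10.7%, 2.12%, 1.52% and 2.77% of all windows. Among windows that fell at least 4-fold the shares were 16%, 3.5%, 0.5% and 1.5%. Among those that rose at least 4-fold they were 12.7%, 3.23%, 1.15% and 1.85%. These shares describe letters in a window, and binding was not measured.

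Interferon-stimulated genes rose for 8 of 15 tested, with none called lower and a median of 0.63, beside 19.4% of all genes that rose. Ifit2, an RNA-binding antiviral protein, was at 5.20 and 7.21 CPM with vehicle and at 62.2 and 43.0 CPM with trametinib (3.08), and Ifit3 at 0.186 and 0.279 against 6.38 and 3.31 CPM (4.36). The transcription factor gene Irf1 rose from 48.3 and 40.9 to 98.6 and 89.6 CPM (1.08). Ifit1 had 0 and 1 counts with vehicle and 22 and 12 with trametinib. The number higher was 5 without the first vehicle library and 5 when either trametinib library was left out, and 1 was lower without the second vehicle library and 1 without the second trametinib library. The median ran from 0.38 to 0.95 with a library left out.

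Antigen presentation genes rose for 5 of 8 tested, at low levels or by small amounts, beside 19.4% of all genes that rose. The class I light chain B2m went from 72.9 and 60.2 to 98.2 and 88.3 CPM (0.49), while the class I heavy chains H2-K1 and H2-D1 were not called. The class II chaperone Cd74 rose from 0.632 and 0.518 to 4.88 and 1.86 CPM (2.54) and the class II activator Ciita from 0.966 and 1.23 to 4.34 and 2.21 CPM (1.57). The peptide transporter gene Tap2 rose from 0.892 and 1.19 to 3.55 and 2.85 CPM (1.62), a call lost without the first vehicle or the first trametinib library, with 18.5% of its exon bases opposite exons of another gene. These calls rest on few libraries: 2 genes were called higher without the first vehicle library, 1 without the second and 0 without the first trametinib library, where 1.68 was the log2 change of Cd74 and 1.0 that of Ciita.

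Amino acid stress genes under ATF4 fell almost throughout, 19 of 20 with a median of -1.38, while 19.6% of all genes tested fell. Atf4 itself was at 599 and 527 CPM with vehicle and at 166 and 202 CPM with trametinib (edgeR, log2 change -1.62, adjusted p = 0.000986). The cystine transporter gene Slc7a11 fell from 58.9 and 60.8 to 4.88 and 8.03 CPM (-3.21), the kinase-like Trib3 from 112 and 133 to 17.9 and 31.0 CPM (-2.33), and Psat1, of serine synthesis, from 399 and 361 to 63.2 and 93.4 CPM (-2.28). Stc2 was the member not called.

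Cholesterol synthesis genes fell for 16 of 20, with 1 higher and a median of -0.83, beside 19.6% and 19.4% of all genes. Msmo1 went from 276 and 185 to 81.5 and 87.7 CPM (-1.44) and Idi1 from 94.9 and 66.4 to 30.9 and 32.2 CPM (-1.35). Stard4, which carries cholesterol between membranes, rose from 222 and 259 to 735 and 750 CPM (1.63). Without the second vehicle library 2 genes were called higher.

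Glycolysis genes had a median of -0.73, with 6 of 18 lower, none higher and 12 not called, and 39.0% of all genes were called. DESeq2 called 10 lower, and the median ran from -1.06 to -0.46 with a library left out. Gapdh was at 12852 and 11739 CPM with vehicle and at 3990 and 6033 CPM with trametinib (-1.29), Gpi1 at 1553 and 1319 against 529 and 751 CPM (-1.17), and Pgk1 at 2779 and 2823 against 890 and 1712 CPM (-1.11). The glucose transporter gene Slc2a1, at 278 and 538 against 152 and 270 CPM, was not called. The first trametinib library was the lower of its pair for all 18 genes. Without the second trametinib library 14 genes were called lower, and 3 were when any other library was left out. Gapdh lost its call without the first vehicle library and Pgk1 when either vehicle library was left out.

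Lysosome and autophagy genes rose for 9 of 22, with 2 lower and 11 not called, beside 19.4% and 19.6% of all genes. Neu1, a lysosomal sialidase, was at 298 and 270 CPM with vehicle and at 922 and 939 CPM with trametinib (edgeR, log2 change 1.71, SE 0.15, adjusted p = 0.000668). Proton pump subunits Atp6v0d1 (34.6 and 44.7 to 107 and 81.1 CPM, 1.25) and Atp6v1h (1.02) and the membrane protein Lamp2 (1.04) rose. The lysosomal regulators split, with Tfeb higher (16.9 and 16.7 to 28.5 and 31.1 CPM, 0.83) and Tfe3 lower (60.8 and 47.2 to 28.9 and 31.1 CPM, -0.85). 1 lower call was made without the first vehicle library and without the first trametinib library.

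MYC targets and ribosome biogenesis genes were mixed, with 8 of 20 lower, 3 higher and 9 not called, beside 19.6% and 19.4% of all genes. Npm1 fell from 1722 and 1311 to 636 and 719 CPM (-1.16) and Odc1, of polyamine synthesis, from 105 and 170 to 55.6 and 73.4 CPM (-1.09), while Rrp12 (1.48) and Bop1 (1.15) rose. Mitochondrially encoded genes rose for 16 of 21 tested, with 1 lower and a median of 1.42, beside 19.4% and 19.6% of all genes that rose and fell. Among them mt-Cytb went from 746 and 1209 to 5857 and 5860 CPM, mt-Nd4 from 323 and 523 to 1953 and 2120 CPM, and mt-Co1, at 9336 and 8767 against 12122 and 13768 CPM, was not called. Mitochondrial genes have nuclear copies, and how reads shared with them were counted is not given in the sources used here.

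Few WNT pathway genes were measurable, 5 of 14. Lgr4, a receptor for R-spondin ligands, was at 18.2 and 19.6 CPM with vehicle and at 105 and 152 CPM with trametinib (edgeR, log2 change 2.76, SE 0.21, adjusted p = 0.000427). Znrf3 rose by a log2 change of 0.62, a call lost whichever library was left out, and Tcf7 fell from 3.16 and 3.55 to 0.609 and 0.418 CPM (-2.69). Of the airway list 5 of 14 were tested: Scgb1a1 rose from 0.334 and 0.398 to 2.65 and 2.02 CPM and Tppp3 also rose, Krt14 fell, and all but Scgb1a1 of these calls were lost when some library was left out.

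The trametinib effect in 3311 was set against that in 1027B organoids in a joint fit of 8 libraries over 14632 genes. Dose, culture and line differ together between the 2 experiments and cannot be told apart. The difference of the effects was called for 1799 genes (12.3%), 865 with a higher value in 3311 (5.91%) and 934 with a lower value (6.38%). In this fit 6049 genes (41.3%) were called in 3311 and 3314 (22.6%) in 1027B. The 1978 called in both were 32.7% of the 3311 genes and 59.7% of the 1027B genes, and 1793 of them changed in the same direction. Of 4071 genes called in 3311 and not in 1027B, 989 also had a called difference. The count of called differences was 757 to 920 without the first vehicle library or when either trametinib library of 3311 was left out, and 726 to 1186 when any 1027B library was left out.

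Mitosis had the most called differences of the lists. All 25 fell in 3311 and 24 fell in 1027B, beside 20.5% and 10.8% of all genes in the joint fit, with medians of -3.04 and -1.36, and the difference was called for 15, each with the larger fall in 3311, among them Mki67, Top2a, Ccnb2, Aurkb and Bub1. The ERK feedback list had nearly equal medians, -1.20 and -1.23, and called differences for 5 of 18 genes. Etv4 was among those 5: it went from 111 and 114 to 1.10 and 1.74 CPM in 3311 and from 51.2 and 57.5 to 3.64 and 5.69 CPM in 1027B, a difference of -2.77 (edgeR adjusted p = 0.00294). YAP and TEAD targets had called differences for 10 of 19 genes, 6 higher and 4 lower in 3311, and 12.3% of all genes had one.

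Several genes that rose in 3311 did not pass the test in 1027B, and for these the difference itself was called. Fgfr2 was at 50.0 and 58.7 CPM with vehicle and 75.6 and 64.5 CPM with trametinib in 1027B, against a rise from 12.5 and 21.0 to 167 and 162 CPM in 3311, a difference of 2.93 (edgeR adjusted p = 0.00199). Lgr4 differed by 3.24 and Neu1 by 1.67. Ccn2 and Ehf rose in 3311 from near 0 but stood high in 1027B in all 4 libraries, at 167 to 271 CPM and 310 to 404 CPM, with differences of 4.04 and 2.73. Amotl2 rose in both experiments, more in 3311 (difference 2.61). The differences for Hnf4a, 0.61 (edgeR adjusted p = 0.208), and Nkx2-1, -0.63 (edgeR adjusted p = 0.101), were not called; Hnf4a was called lower in 1027B (448 and 476 to 260 and 204 CPM, -1.0). For Nkx2-1 the difference was called without the second vehicle library of 3311 (-0.83, adjusted p = 0.026).

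**Figure D5:**
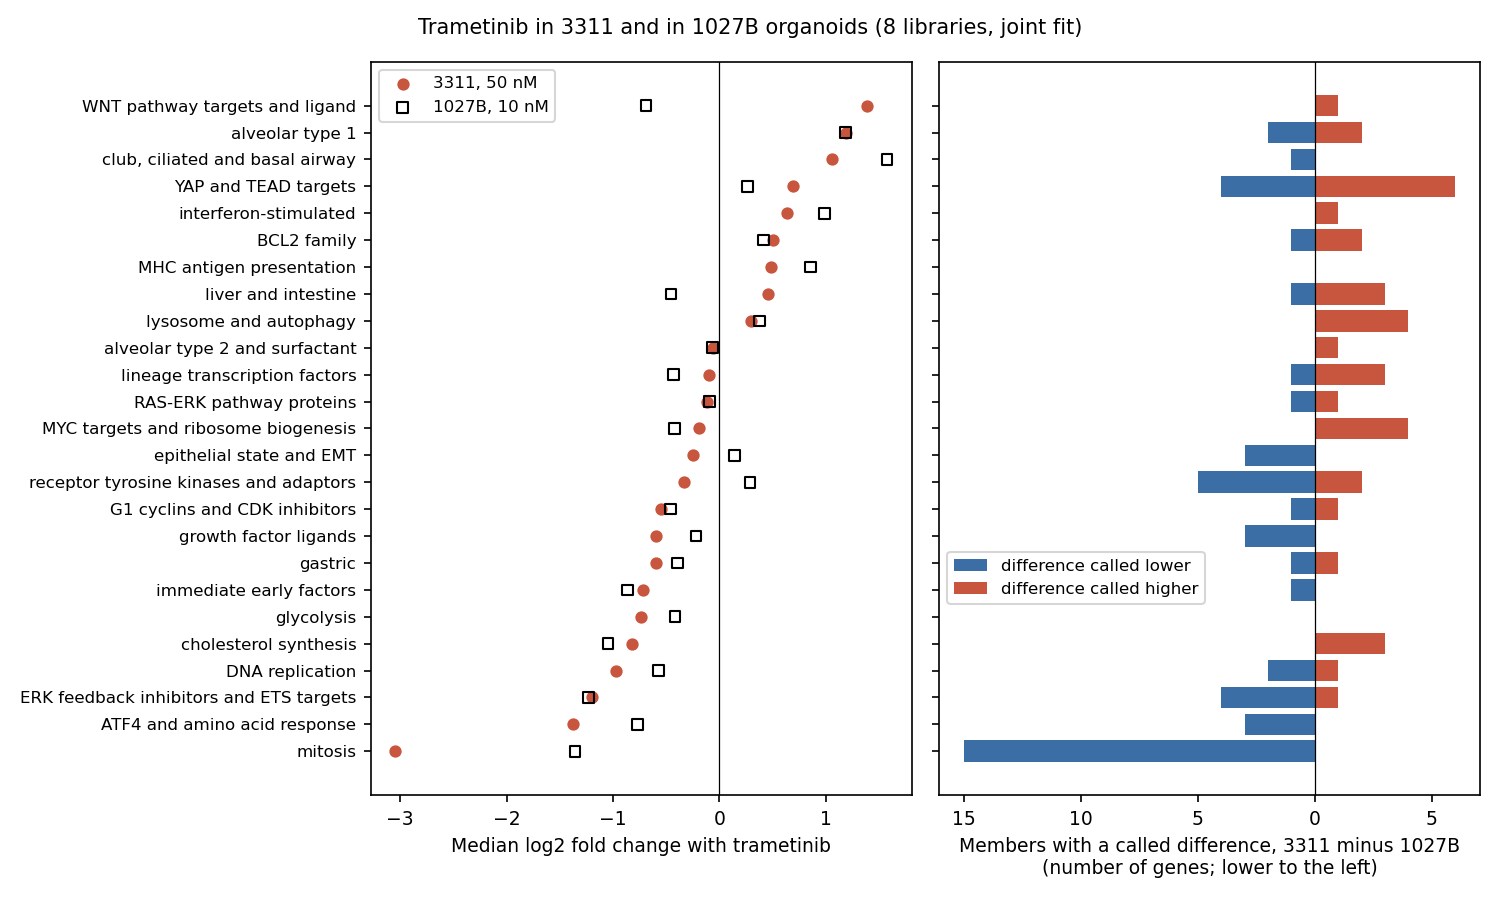
For each gene list, the left panel gives the median log2 fold change with trametinib in 3311 (circles) and 1027B (squares), and the right panel the number of members whose difference between the experiments was called. Mitosis has the most called differences (15, all lower in 3311), with medians of -3.04 and -1.36.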

How the data were processed

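Poly(A) RNA libraries (NEBNext Ultra II Directional, paired-end NovaSeq, per the labels' protocols) were deposited by the authors as raw counts per gene for 3311 and, in a separate table, 1027B. The submitters' processing notes name cutadapt 3.5, STAR 2.7.6a and featureCounts 1.6.3 and the builds mm10 and mm39; which build and strand setting this table used is not given in the sources used here. Groups came from the labels and columns were matched to them by treatment and replicate number.

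Counts were tested with edgeR 4.0.16 (R 4.3.3; filterByExpr defaults, TMM factors, quasi-likelihood F test, Benjamini-Hochberg adjustment over all genes tested, called at an adjusted p under 0.05). Of 17260 listed genes, 15224 were tested and 2036 were too low. A CPM is TMM-scaled, a list median is over tested members, and 3 counts correspond to 0.108 to 0.119 CPM. The difference between experiments is the line by treatment interaction over 15116 shared genes, of which 14632 were tested. Scripts were tested on simulated data. Alternatives were DESeq2 1.42.0, other scaling factors and filters, a fold limit, the replicate number as a block, a joint fit and leaving out each library. Without a library its group has 1 sample, assumed to vary like the others.

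The genes named were Hnf4a and Nkx2-1, up to 3 called members per list with the largest change, the 8 largest rises and falls that reached 10 CPM without overlap of groups, and the 6 largest differences between experiments that were called in 3311 too; further members are examples chosen after their values were seen. The members and lists were chosen with earlier results of these data known. Coordinates are from GENCODE M21 (GRCm38), and promoters from RefSeq (GRCm38.p6), matched by symbol, first listed start. Some named items of the rule are not reported here.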

Additional observations from a re-analysis of the deposited data

Results flagged for a closer look

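The trametinib effect differed between 3311 and 1027B, by the test of the difference itself in the joint fit, for the 14 genes below, given as the log2 change in 3311 minus that in 1027B. From the 89 genes named for 3311, Hnf4a, Nkx2-1 and those also among the largest differences given below were set aside. Of the rest, 78 could be tested in both experiments and 30 had a called difference, beside 12.3% of all genes. The named genes were chosen mainly for large changes in 3311, so nothing is read from that share. Among those 78 genes, the 8 with the smallest p are Ehf (2.73), Lgr4 (3.24), Oit1 (-2.51), Fgfr2 (2.93), Ccn2 (4.04), Neu1 (1.67), Amotl2 (2.61) and Etv4 (-2.77). Oit1 fell in both, from 27.8 and 28.3 to 0.819 and 0.793 CPM in 3311 and from 165 and 145 to 22.7 and 28.4 CPM in 1027B.

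The 6 largest differences among genes called in 3311 were of other kinds. Gm17322 (7.70) and Gm21814 (5.75), both noncoding genes, rose in 3311 and stayed under 1.2 CPM in every 1027B library. Col14a1, a fibril-associated collagen, rose in 3311 from 0.661 and 0.237 to 17.9 and 19.0 CPM and was at 0.383 to 3.06 CPM in 1027B (6.86). 5330417C22Rik fell in 3311 from 208 and 241 to 62.5 and 94.1 CPM and rose in 1027B from 3.01 and 10.2 to 240 and 137 CPM (-6.37). Cytip rose in both (-5.60), in 1027B from 1 count in each vehicle library to 195 and 161 counts. Lix1l (-5.32) rests on 1027B libraries with 0, 0, 4 and 8 counts, against 845 to 1245 counts in 3311, where its rise was not called in the joint fit (edgeR adjusted p = 0.0919) and was called in the fit of 3311 alone.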

How the results depend on the processing

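With an absolute log2 fold change of at least 1 as a further condition, 3386 genes were called in 3311 (1719 higher, 1667 lower). Leaving out a library gave 3772 to 6298 calls (1865 to 3217 higher, 1907 to 3081 lower) in 3311, and 726 to 2402 (322 to 1257 higher, 399 to 1145 lower) for the difference between 3311 and 1027B. DESeq2, RLE or upper-quartile factors, no filter, a minimum of 10 counts in every library and the joint fit gave 5289 to 6049 calls in 3311. With the replicate number as a block, 6356 genes were called in 3311 and 2759 for the difference (1326 higher, 1433 lower). No label says that the numbers pair libraries, and whether they do was not settled: the replicate differences of the vehicle and trametinib groups correlated at 0.18 over genes, with a single pair of groups, and the block calls 9 liver and intestine genes higher and 6 lower. Nkx2-1 ran from -0.39 to 0.046 with a library left out, the latter without the first vehicle library (edgeR adjusted p = 0.849). Of the 1045 values of named genes in 3311 under alternatives, 997 kept their direction and side of the threshold. For named differences between the experiments, 227 values did so, 6 were weaker and 2 were stronger. At this depth 3 counts correspond to 0.108 to 0.119 CPM, and 2036 listed genes were too low to test. The cause of these shifts was not tested.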
